A study of Homo sapiens with 4 samples.

Results

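Transcripts of 9 genes of the p53 pathway, MDM2, MDM4, DDB2, XPC, SESN1, TIGAR, PHLDA3, AEN and ZMAT3, were followed in HEK293T cells, a human embryonic kidney cell line. They were chosen by gene symbol out of 38972 genes in the deposited expression table, and all 9 were present and passed the filter on low values. In these cells 1 of the 9, the exonuclease gene AEN, was higher in the libraries labelled RNase H1, by 1.25-fold in mean TPM, and 8 of 9 did not pass the test. Of all tested genes 11.8% were called, so a count of 1 in 9 is near the background. TPM is the share of a transcript in its library after correction for its length, so levels of different genes can be set side by side.

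The study overexpressed either Flag, an epitope tag that served as the control (2 libraries, labelled oeFlag), or RNase H1, the enzyme that removes RNA paired with DNA (2 libraries, labelled oeRNH1). All 4 libraries came from HEK293T cells, and the labels give no other treatment, dose or time. The series concerns R-loops, and the one contrast in its design is RNase H1 overexpression against the tag. Nothing in the labels says that the replicates came from separate cultures, so p-values measure only the spread between these libraries, which may be technical.

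The transcription factor p53 is kept low in unstressed cells by MDM2, the ubiquitin ligase that marks it for degradation, and by MDM4, a relative of MDM2 that masks its activation domain. MDM2 is itself a p53 target, which closes a feedback loop, and the other genes followed here are targets with roles in DNA repair, metabolism, growth signalling, cell death and RNA handling. HEK293T cells carry the large T antigen of simian virus, which binds and inactivates p53, and adenoviral proteins that also act on p53. Transcripts of p53 targets in this line are therefore not a direct reading of p53 activity, and p53 protein was not measured.

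Library columns summed to between 998901 and 998955 TPM, and the read depth behind them is unknown because TPM does not keep it. RNASEH1 itself had 32.09 and 32.8 TPM with Flag and 29.93 and 29.67 TPM with RNase H1, so the listed level of the overexpressed gene does not bear out the labels, and every direction here is that of the libraries as labelled. Of 5 transcripts known from HEK293T cells (PAX2, NEFL, NEFM, IRS4 and VIM), all were listed above 0 in each library, with summed levels of 1167.5 to 1186.85 TPM in the Flag group and 1123.79 to 1144.37 TPM in the RNase H1 group. IRS4, NEFM and NEFL were called lower and VIM higher, and VIM lost the call after correction for GC content and length (limma adjusted p = 0.086). Markers of carcinoma epithelium (8 genes), fibroblasts (6) and blood cells (5) summed to 6.7 to 9.54, 15.18 to 20.01 and 5.65 to 6.68 TPM, with KRT7 and HBB at 0 in all 4 libraries. Of these markers 4 of 8, 1 of 6 and 2 of 5 passed the filter on low values and none of those was called. Their part in the results was not tested.

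Only in AEN among the promoters compared did the sequence before the RefSeq start hold a match to the p53 half-site, the consensus repeated in a p53 response element. Promoters, taken as the 250 bases before the RefSeq start (GRCh38.p14), were found for 8 of the 9 genes, and the AEN and MDM2 sequences are given because AEN was the gene called and MDM2 is the regulator of the pathway. Capitals mark the half-site (the last capitals of AEN, beginning 34 bases before the start) and CCAAT or its reverse complement (the other capitals of AEN, and in MDM2 a single stretch where matches on both strands overlap). The AEN region is chr15:88621090-88621339 and the MDM2 region chr12:68807922-68808171, both on the plus strand.
AEN: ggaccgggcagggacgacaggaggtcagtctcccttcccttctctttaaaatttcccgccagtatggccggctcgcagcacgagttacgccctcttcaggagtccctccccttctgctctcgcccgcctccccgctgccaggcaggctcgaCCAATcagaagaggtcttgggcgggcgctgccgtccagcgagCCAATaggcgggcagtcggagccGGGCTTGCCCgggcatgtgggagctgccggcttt
MDM2: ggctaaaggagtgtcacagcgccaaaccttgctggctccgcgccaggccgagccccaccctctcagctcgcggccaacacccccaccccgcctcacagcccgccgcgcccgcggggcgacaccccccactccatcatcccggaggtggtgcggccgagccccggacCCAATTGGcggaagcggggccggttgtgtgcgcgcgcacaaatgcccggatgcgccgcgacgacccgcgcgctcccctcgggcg

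On both strands, the half-site was present in 1 of 8 promoters of the group and in 5.53% of 27305 promoters of the same length. A pair of half-sites within 0 to 13 bases of each other was found in none of the 8 and in 0.0293% of all promoters. Only exact matches to the consensus were counted, so half-sites with a mismatch, in AEN or elsewhere, are not included. CCAAT was present in 5 of 8 (33.0% of all promoters), GGGCGG in 5 of 8 (42.3%) and TATAAA in 0 of 8 (11.1%). GC content of the 8 sequences ran from 52.8% in MDM4 to 76.8% in TIGAR, against a median of 58.0%. These matches describe the letters of this window only. Several p53 targets, MDM2 among them, are known to carry their p53 sites downstream of the first start, outside it.

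By level, AEN and MDM2 led the group, at means over the 4 libraries of 64.3 and 62.4 TPM, and their ranges overlapped. XPC followed at 40.4 TPM and lay apart from its neighbours on both sides. SESN1 (29.6 TPM), DDB2 (28.7) and MDM4 (26.5) formed a middle tier in which neighbours overlapped. TIGAR stood alone at 15.8 TPM, and ZMAT3 (10.035) and PHLDA3 (9.9) were lowest and overlapped. The median tested gene had 15.89 TPM. The mean of TIGAR was close to it. The 9 levels summed to 271.7 and 290.3 TPM in the Flag group and to 299.2 and 289.1 TPM in the RNase H1 group, which overlap.

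**Figure D1:**
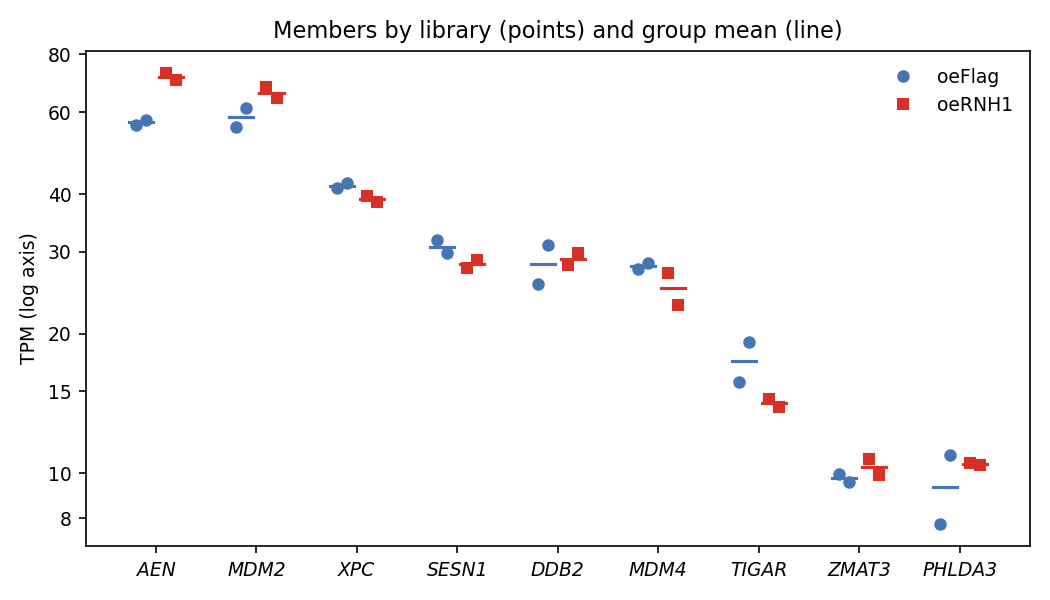
TPM (log axis) of the 9 genes in each library, ordered by mean level; blue circles are oeFlag, red squares oeRNH1, and lines are group means of 2 libraries. AEN, at 56.33 and 57.81 against 72.86 and 70.33 TPM, shows the widest gap between groups relative to its replicate spread.

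The tests below come from limma on log2(TPM + 1), fitted to the 15651 genes that averaged 1 TPM or more, and adjusted over all of them by the Benjamini-Hochberg method. A call is an adjusted p under 0.05. Log2 fold changes are on that scale, so they understate the change of low genes, and each is given with its standard error (SE). Errors of TPM are SD over 2 libraries. Of all tested genes, 11.8% were called, 6.3% higher and 5.54% lower, and 60.7% had groups that did not overlap, 31.3% with RNase H1 above and 29.4% with RNase H1 below. Among the 9 genes 1 was called, and 6 did not overlap, 2 above and 4 below. The median of their log2 fold changes was 0.04, against 0.00 over all tested genes. No permutation of 2 libraries against 2 can give a two-sided p below 0.333, so that test cannot pass a single value.

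The regulators of p53 leaned in opposite directions, neither of them past the threshold. MDM2 (ENSG00000135679, chromosome 12, 68808176 to 68850686, plus strand, coordinates from GENCODE release 29, GRCh38) had 55.89 and 61.3 TPM with Flag (58.6 ± 3.83) and 68.03 and 64.37 TPM with RNase H1 (66.2 ± 2.59). Both RNase H1 libraries were above both Flag libraries, and the closest pair across groups differed by less than the 2 Flag libraries did. The log2 fold change was 0.17 ± 0.07 (limma adjusted p = 0.142), with a 95% interval from 0.01 to 0.34. It was 0.11 without oeFlag replicate 1 and 0.24 without oeFlag replicate 2.

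MDM4 (ENSG00000198625, chromosome 1, 204516379 to 204558120, plus strand) was at 27.51 and 28.39 TPM in the Flag group (27.95 ± 0.622) and at 27.06 and 23.07 TPM in the RNase H1 group (25.1 ± 2.82). One RNase H1 library lay close to the Flag values and the other below them, and the groups did not overlap. The log2 fold change was -0.16 ± 0.09 (limma adjusted p = 0.305, 95% interval -0.38 to 0.07). It was -0.04 without oeRNH1 replicate 2 and -0.27 without oeRNH1 replicate 1.

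Set against each other within a library, MDM2 transcripts outnumbered MDM4 transcripts 2.03 and 2.16 to 1 in the Flag group and 2.51 and 2.79 to 1 in the RNase H1 group. The groups had to lie apart in this ratio, because MDM2 lay apart above and MDM4 apart below. The ratio therefore adds no evidence to the values of the genes themselves. The exact permutation test gave the smallest p it allows (two-sided p = 0.333) and so cannot pass.

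**Figure D2:**
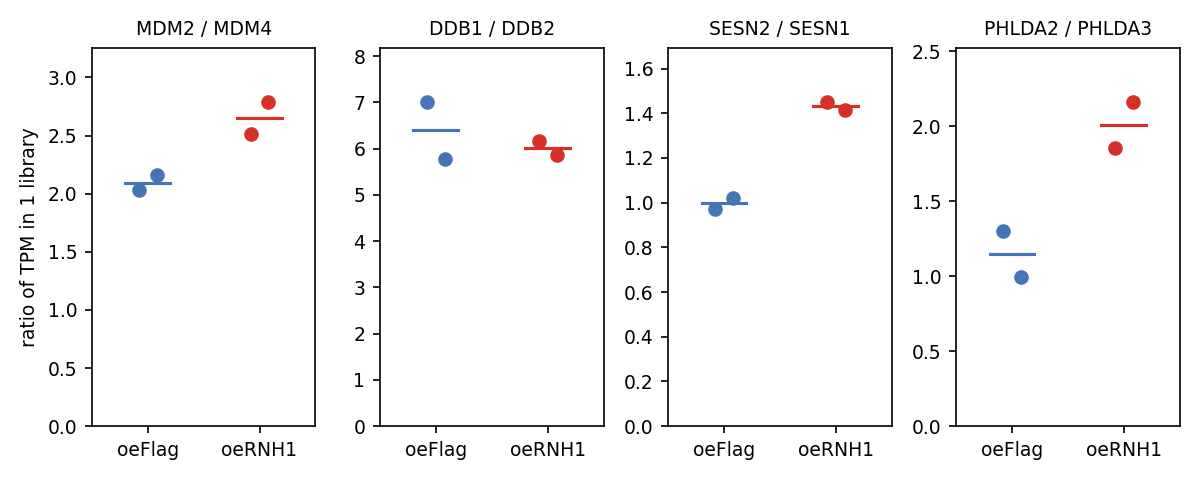
Ratio of TPM of a pair of genes within each library (points; lines are group means of 2 libraries; each vertical axis starts at 0). Groups lie apart for MDM2 over MDM4, SESN2 over SESN1 and PHLDA2 over PHLDA3, and overlap for DDB1 over DDB2. Of the ratios not drawn, RAD23B over XPC and SESN1 over SESN3 overlap and AKT2 over PHLDA3 lies apart. The pairs were chosen after their values were seen, and 60.7% of single tested genes have groups apart. MDM2 over MDM4 and SESN2 over SESN1 had to lie apart, because the genes of each pair lie apart in opposite directions.

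DDB2 and XPC, the damage sensors that begin nucleotide excision repair away from transcribed strands, showed no call. DDB2 (ENSG00000134574, chromosome 11, 47214465 to 47239240, plus strand), the subunit that recognises ultraviolet lesions, stood at 25.57 and 31.05 TPM in the Flag group (28.3 ± 3.87) and at 28.17 and 29.85 TPM in the RNase H1 group (29.01 ± 1.19). The Flag libraries were further apart than the groups and enclosed both RNase H1 values. The log2 fold change was 0.04 ± 0.10 (limma adjusted p = 0.825, 95% interval -0.21 to 0.29).

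XPC (ENSG00000154767, chromosome 3, 14145147 to 14178783, minus strand), which binds distorted DNA, stood at 41.12 and 42.31 TPM in the Flag group (41.7 ± 0.841) and at 39.67 and 38.46 TPM in the RNase H1 group (39.1 ± 0.856). The groups lay apart by a small margin, with a log2 fold change of -0.09 ± 0.06 (limma adjusted p = 0.350, 95% interval -0.24 to 0.06). The antisense gene XPC-AS1 shares 23.8% of the exonic bases of XPC, and its values were 4 and 2.53 TPM, then 7.89 and 5.61 TPM (log2 0.87 ± 0.23, limma adjusted p = 0.0587). LSM3, also on the opposite strand, shares 6.63% of those bases and is more abundant than XPC, at 90.7 and 89 TPM, then 85.27 and 94.84 TPM. Whether the authors' counting used strand is not given in the sources used here, so reads of XPC and these genes may not be told apart.

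The partners of both sensors were several times more abundant than the sensors in each library. DDB1, which forms the damage sensor with DDB2, had 7.01 and 5.78 transcripts for each of DDB2 in the Flag group and 6.16 and 5.87 in the RNase H1 group. RAD23B, which stabilises XPC protein, had 4.88 and 4.53 for each of XPC, then 4.57 and 4.92. Both ratios overlapped between groups. Of 25 other genes of nucleotide excision repair, all tested, 1 was called higher and 0 lower, and 24 were not called, which is 4% against the 11.8% of all genes, with a median log2 fold change of -0.01. The higher one was GTF2H1, a subunit of the repair and transcription factor TFIIH, at 51.6 ± 1.32 and 64.3 ± 2.16 TPM (log2 0.31 ± 0.06, limma adjusted p = 0.0296). Correction for GC content and length removed the call (limma adjusted p = 0.0567).

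SESN1, TIGAR and PHLDA3 act on growth signalling and metabolism, and none was called. SESN1 (ENSG00000080546, chromosome 6, 108986437 to 109094819, minus strand), a sestrin that restrains the growth kinase mTORC1, was at 31.85 and 29.78 TPM in the Flag group (30.8 ± 1.46) and at 27.76 and 28.85 TPM in the RNase H1 group (28.3 ± 0.771). The RNase H1 values lay below the Flag values, with a log2 fold change of -0.12 ± 0.07 (limma adjusted p = 0.310, 95% interval -0.29 to 0.06). Without oeFlag replicate 1 it was -0.07.

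Its paralog SESN2, which is also a target of the stress factor ATF4, rose from 30.7 ± 0.403 to 40.5 ± 0.368 TPM (log2 0.39 ± 0.06, limma adjusted p = 0.0204). SESN3 was at 25.5 ± 0.707 and 24.2 ± 1.39 TPM (log2 -0.07 ± 0.08, limma adjusted p = 0.555). SESN2 and SESN1 transcripts were nearly equal in the Flag group, at ratios of 0.973 and 1.02, and SESN2 exceeded SESN1 in the RNase H1 group, at 1.45 and 1.41. With SESN2 apart above and SESN1 apart below, their ratio had to lie apart. Any ratio whose groups lie apart gives this exact permutation p (two-sided p = 0.333), so the test decides nothing here.

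TIGAR (ENSG00000078237, chromosome 12, 4307763 to 4354593, plus strand), a phosphatase that lowers fructose-2,6-bisphosphate and steers glucose into the pentose phosphate pathway, had the lowest log2 fold change of the 9. It stood at 15.73 and 19.2 TPM in the Flag group (17.5 ± 2.45) and at 14.45 and 13.89 TPM in the RNase H1 group (14.2 ± 0.396). Both RNase H1 libraries were below both Flag libraries, and the Flag libraries differed from each other by more than the nearest pair across groups. The log2 fold change was -0.28 ± 0.11 (limma adjusted p = 0.153), with a 95% interval from -0.55 to -0.005. It was -0.14 without oeFlag replicate 2 and -0.41 without oeFlag replicate 1. A protein-coding readthrough gene, ENSG00000285901, covers 42.6% of the exonic bases of TIGAR in GENCODE, so its value may include reads of that transcript.

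Other enzymes of the sugar pathways in which TIGAR acts included several that fell. Of 13 such genes 12 were tested (FBP1 was not), and 7 of 12 were lower and 0 higher, which is 58.3% against 5.54% of all genes, with a median log2 fold change of -0.34. Among them were the hexokinase HK2 (28.8 ± 0.170 to 18.1 ± 1.17 TPM, log2 -0.64 ± 0.08, limma adjusted p = 0.0121) and PFKFB4, whose kinase makes the sugar phosphate that TIGAR removes (14.7 ± 1.32 to 10.2 ± 0.0919 TPM, log2 -0.48 ± 0.10, limma adjusted p = 0.0363). The phosphofructokinases PFKM and PFKP fell by 0.45 ± 0.09 and 0.39 ± 0.08. In the pentose phosphate pathway TKT fell by 0.39 ± 0.06. The list was chosen with earlier results of these data known, so its share is not independent evidence of its direction.

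PHLDA3 (ENSG00000174307, chromosome 1, 201464383 to 201469237, minus strand), a pleckstrin-homology protein that competes with AKT kinases for the membrane, was at 7.78 and 10.92 TPM in the Flag group (9.35 ± 2.22) and at 10.51 and 10.39 TPM in the RNase H1 group (10.4 ± 0.0849). The higher Flag library exceeded both RNase H1 libraries, and the other lay well below them. Its log2 fold change of 0.16 ± 0.16 had the widest error of the 9 (limma adjusted p = 0.527, 95% interval -0.22 to 0.55). PHLDA2, a paralog, rose from 10.5 ± 0.523 to 21.0 ± 2.13 TPM (log2 0.93 ± 0.10, limma adjusted p = 0.0101), and PHLDA1 was at 1.12 ± 0.148 and 1.42 ± 0.205 TPM. The ratio of PHLDA2 to PHLDA3 was 1.3 and 0.995 in the Flag group and 1.85 and 2.16 in the RNase H1 group. Here too the exact permutation test cannot go below the p it gave (two-sided p = 0.333) and decides nothing.

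In the wider list of sestrin, AKT and mTORC1 genes, 3 of 23 were higher (13% against 6.3% of all genes), 4 lower (17.4% against 5.54%) and 16 not called, and the median log2 fold change was -0.02. The higher genes were SESN2 and PHLDA2, given above, and SEC13. SESN2 is counted again in the list of other p53 targets below. The kinase AKT2 fell from 64.0 ± 0.375 to 44.2 ± 0.184 TPM (log2 -0.53 ± 0.05, limma adjusted p = 0.00957), and AKT1 from 73.4 ± 1.78 to 57.0 ± 3.17 TPM (log2 -0.36 ± 0.06, limma adjusted p = 0.0246). AKT1 was not called after correction for GC content and length (limma adjusted p = 0.0653). SEC13, a component of the GATOR complex, rose by 0.20 ± 0.04. Its call was lost with quantile normalization, and with that correction when the replicate number was added as a block. The mTOR subunit MLST8 fell by 0.40 ± 0.09, a call also lost after correction for GC content and length (limma adjusted p = 0.0730). The 4th gene called lower, WDR59 (log2 -0.38 ± 0.09), also lost its call then (limma adjusted p = 0.0649), at a log2 value of -0.36, so that AKT2 alone kept the call among the 4. RHEB, the most abundant gene of the list and the activator of mTORC1, was at 209 ± 4.36 and 225 ± 10.05 TPM (log2 0.10 ± 0.05, limma adjusted p = 0.221).

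AEN (ENSG00000181026, chromosome 15, 88621296 to 88632282, plus strand), an exonuclease that p53 induces during cell death, was the gene that passed. It had 56.33 and 57.81 TPM with Flag (57.1 ± 1.05) and 72.86 and 70.33 TPM with RNase H1 (71.6 ± 1.79). Both RNase H1 libraries were above both Flag libraries, and the gap was several times the spread within either group. The log2 fold change was 0.32 ± 0.05 (limma adjusted p = 0.0238, 95% interval 0.19 to 0.45). The call was lost with no filter on low values (limma adjusted p = 0.083) and with no intensity trend in the variances (0.0963), both at a log2 value of 0.32, and kept after correction for GC content and length (0.34, limma adjusted p = 0.0214). With any 1 library left out it stayed between 0.30 and 0.35, and its adjusted p lay between 0.0985 and 0.139, fits in which at most 15 of all tested genes were called.

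ZMAT3 (ENSG00000172667, chromosome 3, 179017223 to 179072279, minus strand), a zinc-finger protein that binds RNA and regulates splicing and decay, was at 9.94 and 9.56 TPM in the Flag group (9.75 ± 0.269) and at 10.74 and 9.9 TPM in the RNase H1 group (10.3 ± 0.594). The lower RNase H1 value lay within the Flag range. The log2 fold change was 0.07 ± 0.10 (limma adjusted p = 0.655, 95% interval -0.17 to 0.31). It was 0.02 without oeRNH1 replicate 1 and 0.13 without oeRNH1 replicate 2.

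**Figure D3:**
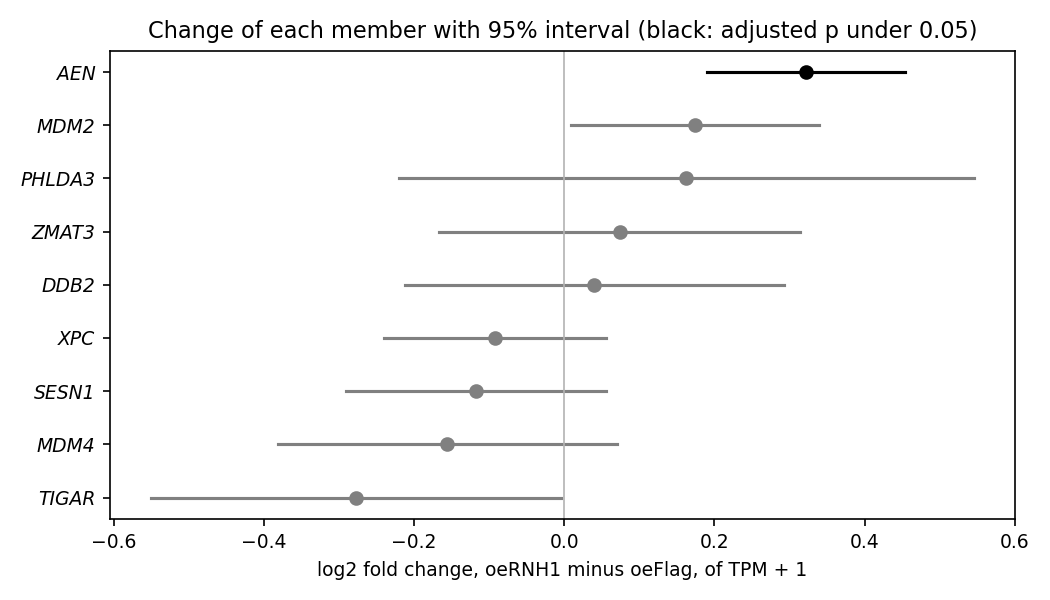
Log2 fold change of TPM + 1 (oeRNH1 minus oeFlag) of each gene (point) with its 95% interval from limma (line); black marks an adjusted p under 0.05. Values run from -0.28 for TIGAR to 0.32 for AEN, and no interval reaches beyond 0.55 in either direction.

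The intervals describe the size of change for each of the 9 genes in the fit as reported, without adjustment. None extended beyond 0.55 on the log2 scale, which corresponds to a 1.46-fold change of TPM + 1. Intervals under other settings are not given here and may reach further. The log2 fold change of TIGAR, for example, was -0.34 after correction for GC content and length. The intervals of MDM2, TIGAR and AEN excluded 0 before adjustment, which is the same test as an unadjusted p under 0.05 in limma. Over all tested genes 4906 of 15651 had such a p, so 3 of 9 is near the background. The values of the 9 genes were spread on both sides of 0, with 5 positive and 4 negative.

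Beyond the 9 genes, a list of 34 other p53 targets was examined, of which 32 were tested. Of these 9 were higher, 0 lower and 23 not called, which is 28.1% against 6.3% of all genes called higher, with a median log2 fold change of 0.18. The list was chosen with earlier results of these data known and is not independent evidence of its direction. Many of its members also respond to growth-factor and stress signals that do not pass through p53. PERP, a desmosome and cell death protein, rose from 56.0 ± 0.827 to 94.5 ± 2.24 TPM (log2 0.74 ± 0.05, limma adjusted p = 0.00510). PMAIP1, the death-promoting protein NOXA, rose from 143 ± 2.02 to 235 ± 14.96 TPM (log2 0.71 ± 0.06, limma adjusted p = 0.00596).

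PLK2, a polo-like kinase, rose by 0.68 ± 0.10 on the log2 scale (limma adjusted p = 0.0191). The stress-inducible growth inhibitors GADD45A and CDKN1A rose by 0.65 ± 0.05 and 0.58 ± 0.06, and SESN2 by 0.39 ± 0.06. CCNG1, the most abundant target of the list, stood at 227 ± 10.7 and 226 ± 1.90 TPM (log2 -0.01 ± 0.05, limma adjusted p = 0.944). BAX and BBC3, classical death genes of the pathway, had log2 values of -0.02 ± 0.05 and -0.04 ± 0.09, and FDXR, a mitochondrial reductase, -0.35 ± 0.12 (limma adjusted p = 0.106). Others that did not pass had higher values, such as the stress cytokine GDF15 at 0.78 ± 0.20 (limma adjusted p = 0.0548) and the death receptor TNFRSF10B at 0.28 ± 0.08 (limma adjusted p = 0.0693). These 5 were picked after their values were seen. Of the 32 tested targets, 17 had the RNase H1 libraries above the Flag libraries, 4 had them below, and 11 overlapped. Over all tested genes, 31.3% lay above and 29.4% below. The difference between this list and the 9 genes was not tested.

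Of 24 members of the p53 family and its regulators, 23 were tested (TP63 was not), and 3 were higher, 1 lower and 19 not called, with a median log2 fold change of 0.06. The share called was 17.4% against 11.8% of all tested genes, and 2 genes of the list were called after correction for GC content and length. The deacetylase SIRT1 rose from 34.1 ± 0.643 to 44.5 ± 0.424 TPM (log2 0.37 ± 0.06, limma adjusted p = 0.0218). PPM1D, the phosphatase WIP1 and itself a p53 target, rose from 22.1 ± 0.0283 to 28.2 ± 1.20 TPM (log2 0.34 ± 0.07, limma adjusted p = 0.0377). CSNK1A1, a kinase that works with MDM4, rose by 0.19 ± 0.04 (limma adjusted p = 0.0454). CDKN2A, which encodes the MDM2 inhibitor ARF along with a kinase inhibitor, fell by 0.25 ± 0.06 (limma adjusted p = 0.0487). After correction for GC content and length, PPM1D was at 0.31 (limma adjusted p = 0.0511), CSNK1A1 at 0.14 (0.0681) and CDKN2A at -0.16 (0.0936), none of them called, and SIRT1 was called at 0.29 (0.0360). RPL5, a ribosomal protein that binds MDM2 and the most abundant of this list, was at 3718 ± 68.1 and 3875 ± 31.9 TPM (log2 0.06 ± 0.03, limma adjusted p = 0.221).

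**Figure D4:**
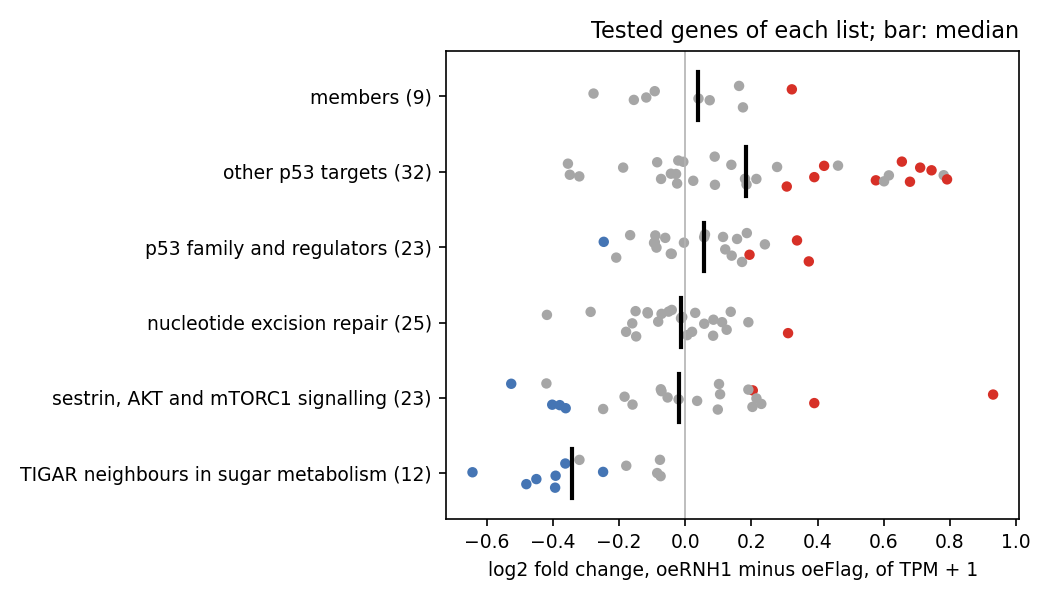
Log2 fold change of TPM + 1 (oeRNH1 minus oeFlag) of each tested gene in 6 lists, the number tested in brackets; red and blue mark genes called higher and lower, grey those not called, and black bars the medians. The 9 genes (members) have a median of 0.04, other p53 targets 0.18 and the sugar metabolism enzymes -0.34.

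The genes whose pattern over the 4 libraries was most like that of AEN, by Euclidean distance of mean-centred log2(TPM + 1) among 11244 genes of at least 5 TPM, were RNF19B (distance 0.00339) and ZNF184 (0.0144). RNF19B stood at 23.13 and 23.69 TPM, then 30 and 28.94 TPM. Those nearest to MDM2 were DPH3 (0.0159) and ZNF574 (0.0215), and those nearest to MDM4 were GATA5 (0.00801) and ANKRD6 (0.0208). With 4 libraries many genes have near-identical patterns, so these distances describe the values alone.

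**Figure D5:**
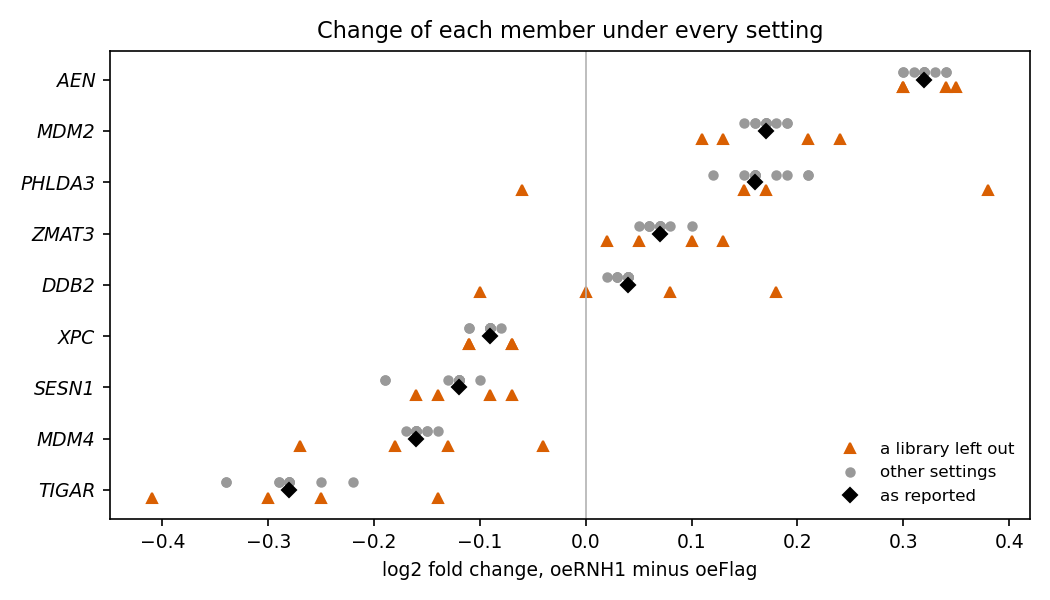
Log2 fold change (oeRNH1 minus oeFlag) of each gene as reported (diamond), with 1 library left out (triangles) and under the other settings (circles). AEN keeps to between 0.30 and 0.35, while DDB2 and PHLDA3 cross 0 when a library is left out.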

How the data were processed

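The authors deposited a table of TPM values, with a column for each of the 4 libraries, which were grouped by title. The submitters' processing notes name STAR and hg38. Versions, the quantifier, the annotation and strand handling were not given in the sources used here. Genes averaging 1 TPM or more were fitted with limma 3.58.1 (R 4.3.3) on log2(TPM + 1), with a term for the group and an intensity trend in the variances (two-sided), and p-values were adjusted over all 15651 tested genes. The procedure was tested on simulated data. Coordinates and overlaps are from GENCODE release 29; promoters are from RefSeq GRCh38.p14. GC content and length of the longest transcript (splines with 4 degrees of freedom) were used for a correction, with 3110 genes unmatched. Ratios were compared by exact permutation. Depth is unknown, so no counting interval was computed. Figures were drawn with matplotlib 3.10.9. The members, lists and tests were chosen with earlier results of these data known, so no share called in a list is independent evidence. Genes named besides the 9 were, per list, up to 6 called by smallest p and the most abundant one, RNASEH1 and, for AEN, MDM2 and MDM4, the 2 nearest patterns; SESN3, PHLDA1, BAX, BBC3, FDXR, GDF15, TNFRSF10B, WDR59, XPC-AS1 and the partner ratios were chosen after their values were seen. A few listed genes are not reported here. Alternatives were other pseudocounts, filters, normalizations and variance models, the replicate number as a block, GC and length correction, and leaving out each library.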

Additional observations from a re-analysis of the deposited data

How the results depend on the processing

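All 8 genes not called stayed uncalled under each of 15 alternatives, and AEN kept its direction in all 15 and its call in 9. With no filter on low values, and with no intensity trend, the counts of calls were 0 and 0 among the 9 genes, 0 and 0 among other p53 targets, 0 and 0 among p53 regulators, and 0 and 1 over all genes, where 5655 and 4337 genes had an unadjusted p under 0.05 in limma. With 1 library left out, which leaves 1 library in an arm assumed to vary like the other group, the counts ranged from 0 to 0 for the 9 genes, other p53 targets and regulators, and from 0 to 15 over all genes, where 3367 to 4035 genes had an unadjusted p under 0.05. The regulators had 2 calls after GC and length correction, with and without the replicate block, against 4 in the fit as reported. DDB2 was at -0.10 without oeFlag replicate 1 and -0.00 without oeRNH1 replicate 2, and reached 0.18 without oeFlag replicate 2, and PHLDA3 was at -0.06 without oeFlag replicate 1 and 0.38 without oeFlag replicate 2. In these cases 1 library sets the sign, and the cause of the other losses was not tested. The replicate block gave 2442 calls over all genes against 1853, 1 among the 9 genes, 13 among other p53 targets and 5 among regulators. The labels tie no replicate numbers together, and deviations of same-numbered libraries correlated at 0.0307. TPM does not keep depth, so the counting noise of PHLDA3 and ZMAT3, the lowest of the 9 genes, is unknown.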
